A study of Mus musculus with 4 samples.

Results

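The 8 genes of the epithelial danger and acute-phase response were followed in Langerhans cells, dendritic cells that reside in the epidermis, taken from ears of mice. The genes were chosen by symbol: Lcn2, S100a8, S100a9, Saa3, Saa1, Serpina3n, Serpina3g and Hp, 8 of the 55487 genes in the count table, each with 1 row. All mice were wild type; 2 libraries came from ears treated with imiquimod, a TLR7 agonist that makes mouse skin inflamed much as in psoriasis when applied to it, and 2 from ears treated with Vaseline as the control. The labels give no dose, duration, age or sex, and do not say whether libraries of a group came from separate mice, so p-values measure only the spread between these libraries, which may be technical. The labels also give each library a code; the Vaseline codes share their letters and the imiquimod codes do not, and what they stand for is not stated. A batch that follows these codes would follow the treatment too, and the effects of the pair cannot be told apart. Several of these genes were already known to be high in the imiquimod libraries when they were chosen, so their values in this comparison are given as a description, without a test.

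Alarmins are proteins that signal tissue damage to immune cells, and acute-phase proteins are secreted ones whose production climbs during inflammation, in the liver and also locally. S100A8 and S100A9 join to form calprotectin, which binds calcium, zinc and manganese, is abundant in neutrophils and is made by keratinocytes of inflamed skin. Cytokines such as IL-1, IL-6 and IL-17 switch on many genes of this kind through the transcription factors NF-kappaB, C/EBP and STAT3.

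The members lie in clusters with their relatives, and reads of some can be confused with those of a relative. S100a8 (ENSMUSG00000056054; GRCm38 chr3:90668978-90670035, plus strand) and S100a9 (ENSMUSG00000056071; chr3:90692632-90695721, minus strand) are 22597 bases apart. Saa3 (ENSMUSG00000040026; chr7:46711998-46715700, minus strand) and Saa1 (ENSMUSG00000074115; chr7:46740497-46742980, minus strand) are 24797 bases apart. Serpina3g (ENSMUSG00000041481; chr12:104236245-104241939, plus strand) and Serpina3n (ENSMUSG00000021091; chr12:104406729-104414329, plus strand) are 164790 bases apart. Lcn2 (ENSMUSG00000026822; chr2:32384633-32388252, minus strand) and Hp (ENSMUSG00000031722; chr8:109575128-109579172, minus strand) stand alone. In none of the 8 did exons of another gene overlap the exons. Runs of 50 or more identical bases in transcripts of other genes covered 37.8% of the Saa1 coding transcript (shared with Saa2 and Saa3), 34.6% of that of Serpina3g and 24.3% of that of Serpina3n (both shared with other genes of the Serpina3 cluster), and 10.5% of that of Saa3 (shared with Saa1). In Lcn2, S100a8, S100a9 and Hp no such run was found. The coding transcript used was the longest of each gene, except for Saa3, where the shortest was taken. How the authors treated reads that fit several genes is not given in the sources used here, so the values of Saa1, Saa3, Serpina3n and Serpina3g are uncertain to that extent.

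Promoters are shown for 4 members whose window of 250 bases before to 50 bases after the RefSeq start held a C/EBP motif and for both Serpina3 members, since C/EBP and NF-kappaB sites are textbook elements of acute-phase promoters. The sequences are from RefSeq (build GRCm38.p6), 5′ to 3′ on the gene's strand, with every motif match in capitals. The motifs were searched on both strands, as TTGCNNAA for C/EBP, TTCNNNGAA for STAT and, for NF-kappaB, a 10-base consensus whose matches are the capitals in the Serpina3n promoter and the first capitals in that of Serpina3g. STAT and AP-1 letters read the same on both strands, and no match overlapped another. The table held 7 of the 8 members. Lcn2 chr2:32387690-32387989 (minus strand), S100a9 chr3:90695672-90695971 (minus strand), Saa3 chr7:46715627-46715926 (minus strand), Saa1 chr7:46742931-46743230 (minus strand), Serpina3n chr12:104406458-104406757 (plus strand) and Serpina3g chr12:104235897-104236196 (plus strand) read:
Lcn2: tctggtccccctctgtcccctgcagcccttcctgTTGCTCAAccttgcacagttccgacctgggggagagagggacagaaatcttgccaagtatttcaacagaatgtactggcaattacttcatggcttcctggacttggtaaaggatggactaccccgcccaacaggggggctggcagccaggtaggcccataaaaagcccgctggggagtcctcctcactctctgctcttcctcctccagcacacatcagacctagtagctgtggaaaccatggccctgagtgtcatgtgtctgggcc
S100a9: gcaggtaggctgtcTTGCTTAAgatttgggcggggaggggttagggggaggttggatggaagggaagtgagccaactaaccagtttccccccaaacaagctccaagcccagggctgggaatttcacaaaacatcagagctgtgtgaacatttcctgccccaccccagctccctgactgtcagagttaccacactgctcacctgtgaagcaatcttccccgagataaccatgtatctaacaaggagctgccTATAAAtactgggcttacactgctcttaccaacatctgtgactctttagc
Saa3: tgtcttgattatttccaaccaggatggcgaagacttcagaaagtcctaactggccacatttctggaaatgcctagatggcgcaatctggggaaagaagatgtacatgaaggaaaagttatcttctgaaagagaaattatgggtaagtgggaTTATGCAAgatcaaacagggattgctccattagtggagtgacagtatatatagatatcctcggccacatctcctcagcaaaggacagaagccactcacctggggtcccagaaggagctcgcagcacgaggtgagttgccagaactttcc
Saa1: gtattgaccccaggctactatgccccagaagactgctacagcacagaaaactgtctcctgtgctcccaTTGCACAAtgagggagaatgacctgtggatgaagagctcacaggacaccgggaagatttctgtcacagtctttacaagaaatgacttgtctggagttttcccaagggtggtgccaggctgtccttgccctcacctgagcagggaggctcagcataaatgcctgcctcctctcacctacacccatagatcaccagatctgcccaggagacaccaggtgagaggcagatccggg
Serpina3n: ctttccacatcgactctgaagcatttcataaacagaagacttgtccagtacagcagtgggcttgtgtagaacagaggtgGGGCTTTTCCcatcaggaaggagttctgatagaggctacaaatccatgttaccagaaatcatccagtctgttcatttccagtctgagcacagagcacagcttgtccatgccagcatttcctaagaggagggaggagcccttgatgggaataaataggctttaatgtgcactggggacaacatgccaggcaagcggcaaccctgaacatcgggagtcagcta
Serpina3g: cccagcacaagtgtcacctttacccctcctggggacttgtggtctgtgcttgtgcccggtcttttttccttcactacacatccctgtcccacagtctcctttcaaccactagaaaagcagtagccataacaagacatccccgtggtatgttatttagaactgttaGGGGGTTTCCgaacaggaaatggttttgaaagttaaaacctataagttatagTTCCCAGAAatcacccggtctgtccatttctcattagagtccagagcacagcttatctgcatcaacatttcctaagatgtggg
The C/EBP letters stood in 4 of 7 member promoters (Lcn2, S100a9, Saa3, Saa1), against 10.8% of 32851 promoters in the table. The NF-kappaB letters stood in 2 of 7, those of Serpina3n and Serpina3g, against 4.79% of all. The letters of the TATA box (TATAAA) stood in 2, those of S100a8 and S100a9, against 13.6% of all. They began at position -30 from the RefSeq start in S100a8, but at position 1, the start itself, in S100a9. The STAT letters stood in 1, that of Serpina3g, against 8.3% of all, and those of AP-1 (TGANTCA) in 0, against 7.81% of all. These matches are a description of the letters in these windows.

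The libraries differed in depth and in background. Totals were 14902782 and 20690182 counts in imiquimod 1 and 2, and 41998172 and 76028955 counts in Vaseline 1 and 2. Levels are CPM (counts divided by library size in units of 1e6) scaled by TMM factors, and group values are means ± SD. Each log2 fold change sets imiquimod over Vaseline and comes, with its standard error (SE), from a model fitted to 39439 genes. The median log2 fold change of all those genes was 0.41, and it was 0.16 with RLE factors, 0.76 with upper-quartile factors and 1.30 on library totals alone. A background of reads was taken as the median over 1455 olfactory and vomeronasal receptor genes, whose known roles lie in the nose, which was 0.533 and 1.29 CPM of library total per exonic kilobase in imiquimod 1 and 2, and 0.376 and 0.0938 in Vaseline 1 and 2. Genes at a mean of at least 5 times it are called above background. Fold changes on genes above background come from separate fits to 14465 genes, each with scaling factors of its own. The median log2 fold change of all genes there was 0.08, and 0.04 by DESeq2. Cd207 (langerin), which defines Langerhans cells, was at 1201 and 575 CPM in imiquimod 1 and 2, against 2255 and 6883 CPM in Vaseline 1 and 2, so the labelled cells were present in all libraries. Krt14, a keratin of basal keratinocytes, was at 6502 and 1726 CPM in imiquimod 1 and 2, against 5560 and 7505 CPM in Vaseline 1 and 2, so RNA of keratinocytes was present too.

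The alarmins S100a8 and S100a9 were the most abundant members per exonic kilobase in 3 of the 4 libraries, with a large gap between the Vaseline libraries. S100a9, the larger calprotectin subunit, had 613 and 5202 counts in imiquimod 1 and 2, against 31 and 1406 in Vaseline 1 and 2. Scaled, that was 39.2 and 152 CPM with imiquimod and 0.774 and 31.0 CPM with Vaseline. Every imiquimod library was above every Vaseline library, but Vaseline 2 lay close under imiquimod 1, and Vaseline 1 stood 40.0-fold below Vaseline 2. The means were 95.5 ± 79.7 CPM with imiquimod and 15.9 ± 21.3 CPM with Vaseline (SD, n = 2 each), and the log2 fold change was 2.59 (SE 0.69). In bulk RNA, fewer cells of a type and less RNA per cell cannot be told apart.

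S100a8, its partner, had 16.2 and 48.1 CPM in imiquimod 1 and 2, against 0.774 and 9.22 CPM in Vaseline 1 and 2. The order of the libraries was that of S100a9, with the groups apart and Vaseline 2 11.9-fold above Vaseline 1. Its log2 fold change was 2.69 (SE 0.63), with means of 32.1 ± 22.6 CPM with imiquimod and 5.0 ± 5.98 CPM with Vaseline (SD, n = 2 each). The ratio of S100a9 to S100a8 counts was 2.42 and 3.16 in imiquimod 1 and 2, and 1.00 and 3.36 in Vaseline 1 and 2. Without Vaseline 2 the log2 fold changes were 6.90 for S100a9 and 5.33 for S100a8, and without Vaseline 1 they were 1.49 and 1.67. Without imiquimod 2 they were 1.28 for S100a9 and 1.65 for S100a8, and without imiquimod 1 they were 3.16 and 3.15. The size of the difference between treatments in both subunits therefore rested on which libraries were used, in either group.

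Lcn2, a secreted protein that binds bacterial siderophores and so withholds iron, had 18.8 and 50.2 CPM in imiquimod 1 and 2, against 2.15 and 4.03 CPM in Vaseline 1 and 2. The lower imiquimod library was 4.68-fold above the higher Vaseline library. Means were 34.5 ± 22.1 CPM with imiquimod and 3.09 ± 1.33 CPM with Vaseline (SD, n = 2 each). The log2 fold change was 3.49 (SE 0.66), and 2.60 without imiquimod 2. Per S100a9 count, Lcn2 had 0.481 and 0.330 counts in imiquimod 1 and 2, and 2.77 and 0.130 counts in Vaseline 1 and 2, so the 2 genes did not keep a fixed ratio.

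**Figure D1:**
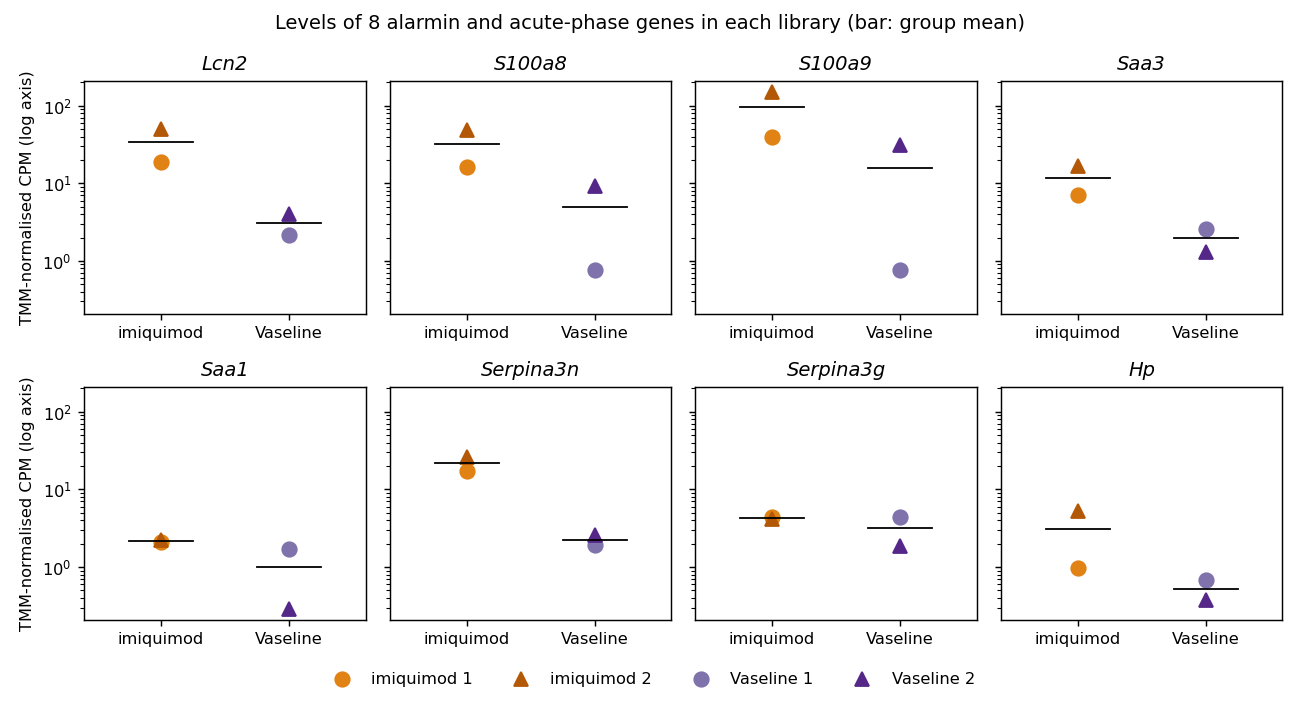
Level of each member (TMM-normalised CPM, log axis) in the imiquimod libraries (left) and the Vaseline libraries (right); circles are replicate 1, triangles replicate 2 and bars the group mean. The groups are apart in every member but Serpina3g, and Vaseline 2 (31.0 CPM) stands far above Vaseline 1 (0.774 CPM) in S100a9.

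Of the protease inhibitors, Serpina3n was high with imiquimod and Serpina3g was not. Serpina3n, a secreted inhibitor known in the mouse to block granzyme B and neutrophil elastase, had 17.4 and 26.5 CPM in imiquimod 1 and 2, against 1.92 and 2.60 CPM in Vaseline 1 and 2. Its libraries of 1 treatment were close, 1.52-fold apart with imiquimod and 1.35-fold with Vaseline, and its lower imiquimod library was 6.71-fold above its higher Vaseline library. Means were 22 ± 6.41 CPM with imiquimod and 2.26 ± 0.478 CPM with Vaseline (SD, n = 2 each), and the log2 fold change was 3.29 (SE 0.66).

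Serpina3g, an intracellular inhibitor of cysteine cathepsins in mouse leukocytes, had 4.47 and 4.14 CPM in imiquimod 1 and 2, against 4.44 and 1.89 CPM in Vaseline 1 and 2. Its groups overlapped. Means were 4.31 ± 0.232 CPM with imiquimod and 3.17 ± 1.80 CPM with Vaseline (SD, n = 2 each). The log2 fold change was 0.45 (SE 0.67), and -0.077 without Vaseline 2. Measured from the median of all tested genes, it lay between -0.05 and 0.07 under TMM, RLE and upper-quartile factors and library totals. Serpina3n counts were 3.90 and 6.39 times those of Serpina3g in imiquimod 1 and 2, and 0.433 and 1.37 times in Vaseline 1 and 2.

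The acute-phase members Saa3, Saa1 and Hp were low. Saa3, the serum amyloid A protein that mouse macrophages and epithelia make outside the liver, had 7.03 and 16.6 CPM in imiquimod 1 and 2, against 2.60 and 1.30 CPM in Vaseline 1 and 2. Its groups were apart, with means of 11.8 ± 6.77 CPM with imiquimod and 1.95 ± 0.917 CPM with Vaseline (SD, n = 2 each). The log2 fold change was 2.65 (SE 0.66), and 1.88 without imiquimod 2. Saa3 differed from the calprotectin genes in that Vaseline 1, not Vaseline 2, was the higher control library.

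Saa1, a serum amyloid A of the liver that circulates on lipoproteins, had 33 and 77 counts in imiquimod 1 and 2, against 68 and 13 counts in Vaseline 1 and 2. Scaled, that was 2.11 and 2.25 CPM with imiquimod and 1.70 and 0.286 CPM with Vaseline. The means were 2.18 ± 0.0982 CPM with imiquimod and 0.992 ± 0.998 CPM with Vaseline (SD, n = 2 each). Its log2 fold change of 1.18 (SE 0.84) was 2.79 without Vaseline 1 and 0.33 without Vaseline 2. When the Saa1 and Saa2 rows, which share sequence, were summed it was 1.11.

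Hp, haptoglobin, which binds free hemoglobin for uptake by CD163, had 15 and 180 counts in imiquimod 1 and 2, against 27 and 17 counts in Vaseline 1 and 2. The exact 95% Poisson intervals were 8.40 to 24.7 and 155 to 208 counts with imiquimod, and 17.8 to 39.3 and 9.90 to 27.2 counts with Vaseline. These intervals cover counting error only. The level was 0.958 and 5.25 CPM with imiquimod and 0.674 and 0.374 CPM with Vaseline, so imiquimod 2 alone was high. Means were 3.11 ± 3.04 CPM with imiquimod and 0.524 ± 0.212 CPM with Vaseline (SD, n = 2 each). The log2 fold change was 2.72 (SE 0.86) with all libraries and 0.90 without imiquimod 2.

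The log2 fold change was above 0 in all 8 members (median 2.67), where 60.6% of all tested genes were positive with a median of 0.41. The edgeR quasi-likelihood test with Benjamini-Hochberg adjustment over all tested genes called 4 of the 8 higher (Lcn2, S100a8, Saa3 and Serpina3n), where 0.0634% of all genes were called higher; since the members were chosen on this comparison, nothing is read from that count. It was 0 with RLE factors, 2 by DESeq2, 5 by limma-voom, 0 in the older form of the quasi-likelihood test, and 3, 1, 3 and 0 without Vaseline 1, Vaseline 2, imiquimod 1 and imiquimod 2. In 7 of 8 members every imiquimod library exceeded every Vaseline library, and 30.5% of all tested genes did so. On library totals alone this held for 8 of 8, and for 45.6% of all tested genes.

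**Figure D2:**
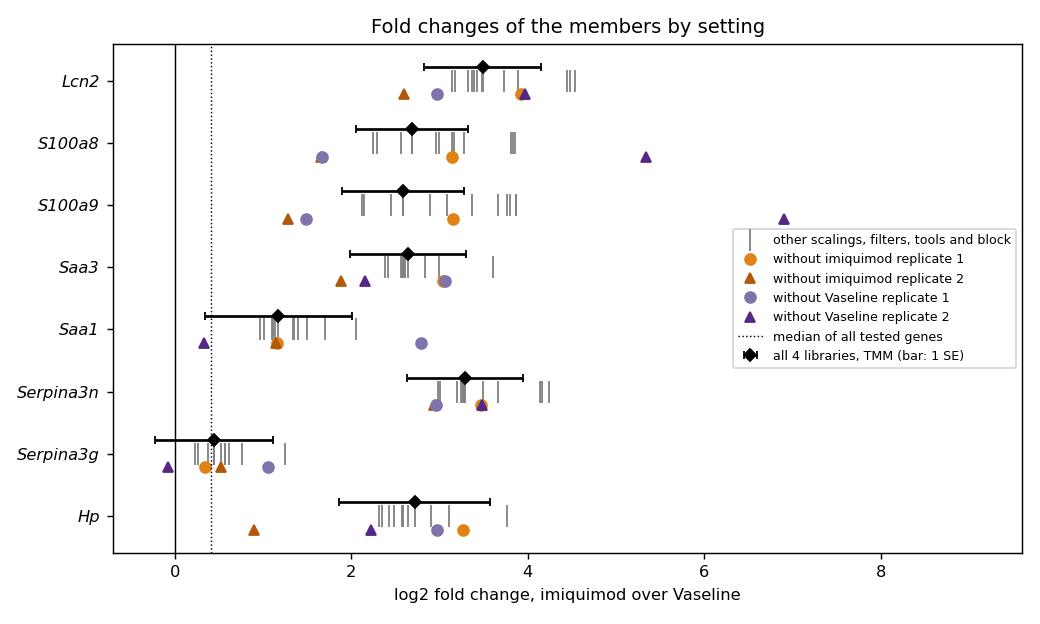
log2 fold change of each member, imiquimod over Vaseline, with all 4 libraries (diamond, bar 1 SE), under other scalings, filters and tools (ticks) and with 1 library left out (circles and triangles); the dotted line is the median of all tested genes. S100a9 is at 2.59 with all libraries and at 6.90 without Vaseline 2, while Serpina3n stays between 2.94 and 4.24.

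Measured in the same way, the other members moved little between the 4 scalings. Other factors shift all genes by similar amounts, so taking off the median cancels most of the shift, and this says little about robustness. Before the median was taken off, Lcn2 ran from 3.17 (RLE factors) to 4.53 (library totals) and S100a9 from 2.14 to 3.87. Lcn2 lay 3.01 to 3.23 above that median, Serpina3n 2.84 to 2.94, Hp 2.31 to 2.46, Saa3 2.24 to 2.30, S100a8 2.13 to 2.55, S100a9 1.98 to 2.57 and Saa1 0.75 to 0.80 (log2). Serpina3g lay at that median, as given above.

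Set against the background of each library, S100a9, S100a8, Lcn2 and Serpina3n averaged at least 5 times the background, and the other 4 members less. S100a9 was at 148 and 374 times the background in imiquimod 1 and 2, and at 3.76 and 378 times in Vaseline 1 and 2. S100a8 was at 45.9 and 89.2 times in imiquimod 1 and 2, and at 2.83 and 84.6 times in Vaseline 1 and 2. On this scale, Vaseline 2 was as high as imiquimod 2 for both calprotectin genes, and their groups overlapped. The scale divides by the background, which was lowest in Vaseline 2.

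Lcn2 was at 14.1 and 24.6 times the background in imiquimod 1 and 2, and at 2.07 and 9.78 times in Vaseline 1 and 2. Serpina3n was at 16.6 and 16.5 times in imiquimod 1 and 2, and at 2.36 and 8.01 times in Vaseline 1 and 2. Saa3 was at 5.31 and 8.20 times in imiquimod 1 and 2, and at 2.53 and 3.17 times in Vaseline 1 and 2. Lcn2, Serpina3n and Saa3 were the members, 3 of 8, with every imiquimod library above every Vaseline library on this scale, as in 6.59% of tested genes with exon lengths.

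Saa1 and Hp lay near the background. Saa1 was at 1.68 and 1.17 times in imiquimod 1 and 2, and at 1.74 and 0.735 times in Vaseline 1 and 2. The 95th percentile of the receptor genes was 2.61 and 2.46 times the background in imiquimod 1 and 2, and 2.61 and 4.0 times in Vaseline 1 and 2, so Saa1 was under it in every library. Hp was under it in 3 libraries and above it in imiquimod 2, at 4.21 times. Serpina3g was at 4.18 and 2.53 times in imiquimod 1 and 2, against 5.35 and 5.73 times in Vaseline 1 and 2, above that percentile in all 4 libraries. It was the 1 member with every imiquimod library below every Vaseline library on this scale. The share of all tested genes that lay below in this way was not counted, so nothing is read from that place.

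**Figure D3:**
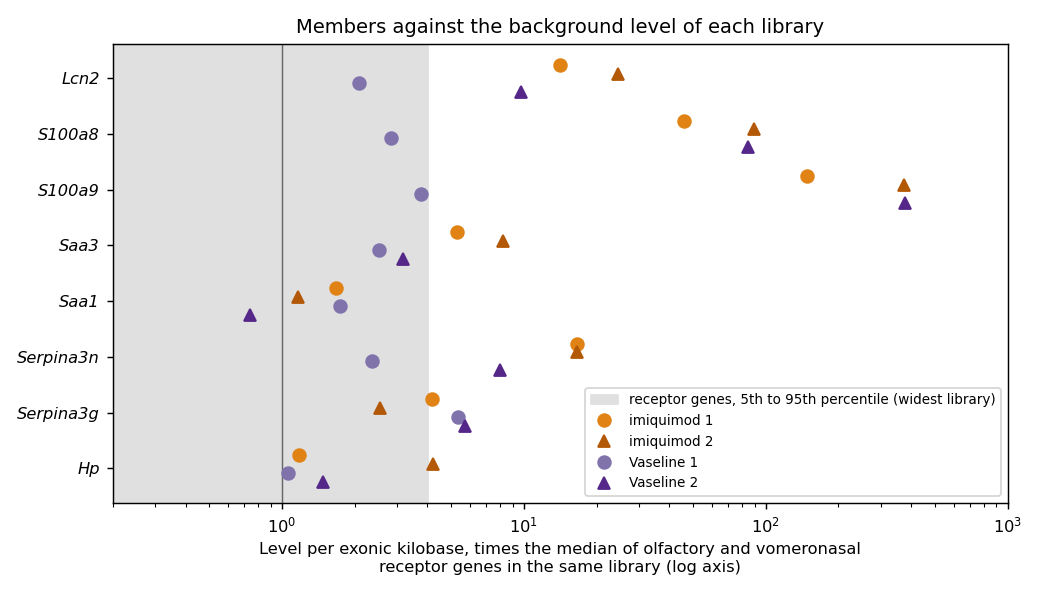
Level of each member per exonic kilobase as a multiple of the median of 1455 olfactory and vomeronasal receptor genes in the same library (log axis), with imiquimod above Vaseline in each row; the grey band is the widest 5th to 95th percentile range of those receptor genes and runs on to 0 on the left. S100a8 and S100a9 in Vaseline 2 (84.6 and 378 times) match imiquimod 2 (89.2 and 374 times), and Saa1 lies in the band throughout.

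The order of the levels per exonic kilobase in imiquimod 1 was S100a9 (75.0 CPM per kilobase), S100a8 (23.3), Serpina3n (8.45), Lcn2 (7.19), Saa3 (2.70), Serpina3g (2.12), Saa1 (0.851) and Hp (0.597). In imiquimod 2, S100a9 (291) and S100a8 (69.3) again led, Lcn2 (19.1) stood above Serpina3n (12.8), and Hp (3.27) stood above Serpina3g (1.97) and Saa1 (0.907). On this measure Lcn2 changed places with Serpina3n between the imiquimod libraries, and Hp with both Serpina3g and Saa1. In Vaseline 1 the span was small, from 0.420 (Hp) to 2.11 (Serpina3g), whereas Vaseline 2 ran from 0.115 (Saa1) to 59.3 (S100a9). Exon unions include retained introns. The length of the coding transcript was also used, the longest of each gene but the shortest for Saa3. Per kilobase of it, Lcn2 stood at 20.6 and 54.8 CPM and Saa3 at 12.7 and 29.9 CPM in imiquimod 1 and 2. Both were above Serpina3n at 8.45 and 12.8 CPM. The order of these 3 members thus depended on the length used, and the place of Saa3 was taken on its shortest transcript alone. Hp changed places with Serpina3g and Saa1 on either length.

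Profiles over the 4 libraries were also compared between genes, as the Euclidean distance between log2 levels centred on each gene's mean, among 13442 other genes with a mean of at least 5 CPM. This is a description over 4 libraries that share depth and background. The member nearest to Lcn2 was Serpina3n (distance 0.66), and the nearest to S100a8 was S100a9 (1.37). Outside the members, the genes nearest to Lcn2 were Acod1, which makes itaconate (0.93), Sprr2d, a cornified envelope protein (1.36), and Hdc, which makes histamine (1.5). The genes nearest to S100a8 were Sprr2d (1.53), Sprr2h (1.71) and Il1b, the cytokine IL-1 beta (1.75).

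The other genes of the S100 family, calcium-binding proteins of many cell types, had mostly negative values. Of 13 tested S100 genes outside the members, 9 had a negative log2 fold change and the median was -0.88, against 0.41 over all tested genes. None was called by edgeR over all genes, where 0.0634% were called higher and 0.137% lower. By edgeR 0 higher and 3 lower had an unadjusted p under 0.05 (3405 higher and 2010 lower of all 39439 genes). DESeq2 called 2 lower (669 of all 39439 genes), limma-voom 1 lower (136 of all) and the older form none. S100a4, a calcium-binding protein of migrating cells, had 30.0 and 29.7 CPM in imiquimod 1 and 2, against 207 and 365 CPM in Vaseline 1 and 2 (log2 fold change -3.26, SE 0.86, edgeR adjusted p = 0.0568), though exons of another gene cover 51.7% of it. S100a1, S100a13 and S100a11 had -2.18, -1.59 and -1.55 (adjusted p = 0.117, 0.283 and 0.393 by edgeR). The list's median was -0.058 without imiquimod 2, -1.87 without imiquimod 1 and -0.74 on the 9 genes that lay above the background.

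Of the 11 other SAA and Serpina3 genes, all tested, each had a log2 fold change above 0 (median 1.09), and in 7 every imiquimod library was above every Vaseline library, as in 30.5% of all genes. None was called by edgeR, DESeq2, limma-voom or the older form. Before adjustment 2 higher and 0 lower had p under 0.05 by edgeR (3405 and 2010 of all 39439 genes). Serpina3k (2.22), Serpina3m (1.74), Saa4 (1.49) and Serpina3f (1.21) had the smallest p (edgeR adjusted p = 0.289, 0.370, 0.358 and 0.434). These 4 averaged 1.44, 1.44, 2.75 and 2.09 times the background, and reads may be split between such neighbouring gene copies. The list's median was 0.46 without Vaseline 2.

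Other acute-phase proteins were low, with a median of 1.88 and 1.86 times the background in imiquimod 1 and 2, and 1.86 and 3.57 times in Vaseline 1 and 2. Of 28 tested, 24 had a log2 fold change above 0 (median 0.86), and in 14 every imiquimod library was above every Vaseline library (30.5% of all genes). None was called by edgeR, DESeq2, limma-voom or the older form. An unadjusted p under 0.05 by edgeR was found for 6 higher and 0 lower (3405 and 2010 of all 39439 genes). C3, the central complement component, had 17.4 and 38.2 CPM in imiquimod 1 and 2, against 9.51 and 10.3 CPM in Vaseline 1 and 2 (1.5, SE 0.60, edgeR adjusted p = 0.289). Serpina1b, Cp and A2m, an antitrypsin, the copper carrier ceruloplasmin and a broad protease inhibitor, had 2.10, 1.64 and 1.47 at 1.37, 1.00 and 1.72 times the background on average (adjusted p = 0.288, 0.290 and 0.317). Fitted to genes above background alone, DESeq2 called C3 higher, among 99 called higher of 14465 genes.

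Other alarmins and antimicrobial peptides went both ways. Of 16 tested, 10 were positive and 6 negative, with a median log2 fold change of 0.20 that was -0.12 with RLE factors, -0.12 by DESeq2, -0.36 without Vaseline 1, -1.13 without imiquimod 1 and 0.66 on 13 genes above the background. None was called by edgeR, DESeq2, limma-voom or the older form. Without adjustment 3 higher and 1 lower had p under 0.05 by edgeR (3405 and 2010 of all 39439 genes). Il1a, the alarmin cytokine IL-1 alpha, had 26.4 and 19.9 CPM in imiquimod 1 and 2, against 7.61 and 7.99 CPM in Vaseline 1 and 2 (1.56, SE 0.60, adjusted p = 0.278 by edgeR). Slpi, a secreted inhibitor of neutrophil proteases, and Defb1, a beta-defensin, had 1.66 and 1.51, while Hmgb1, a nuclear protein that acts as an alarmin once released, had -1.70 (adjusted p = 0.271, 0.294 and 0.290 by edgeR). Defb3, a beta-defensin chosen after its values were seen, had 0 and 120 counts in imiquimod 1 and 2 and was at 0 in both Vaseline libraries; the filter left it out of the test. Fitted to genes above background alone, DESeq2 called Slpi, Il1a and Defb1 higher, among 99 called higher of 14465 genes.

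Epidermal genes that respond to IL-17 and IL-36 mostly had positive values. Of 24 tested, 21 were positive, with a median log2 fold change of 0.78, and in 11 every imiquimod library was above every Vaseline library (30.5% of all genes). None was called by edgeR, DESeq2 or the older form, and limma-voom called 2 higher and 0 lower (41 and 136 of all 39439 genes). In edgeR 6 higher and 0 lower had an unadjusted p under 0.05 (3405 and 2010 of all 39439 genes). Sprr2d had 7.92 and 10.7 CPM in imiquimod 1 and 2, against 0.774 and 3.26 CPM in Vaseline 1 and 2 (2.20, SE 0.66, edgeR adjusted p = 0.122). Sprr2h, its neighbour, had 2.02, Ccl20, a chemokine for CCR6-bearing T cells, 1.90, and Lce3f, a late cornified envelope protein with 0 counts in Vaseline 2, 4.63 (adjusted p = 0.136, 0.181 and 0.141 by edgeR). Sprr2d, Sprr2h and Ccl20 were called higher by DESeq2 fitted to genes above background alone, among 99 of 14465 genes. They were also called by edgeR with upper-quartile factors, among 41 of 39439 genes. On genes with at least 10 counts in every library edgeR called Sprr2h and Ccl20, among 27 of 28554 genes. The list's median was 1.6 without Vaseline 2, and also 1.6 on 17 genes above the background.

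**Figure D4:**
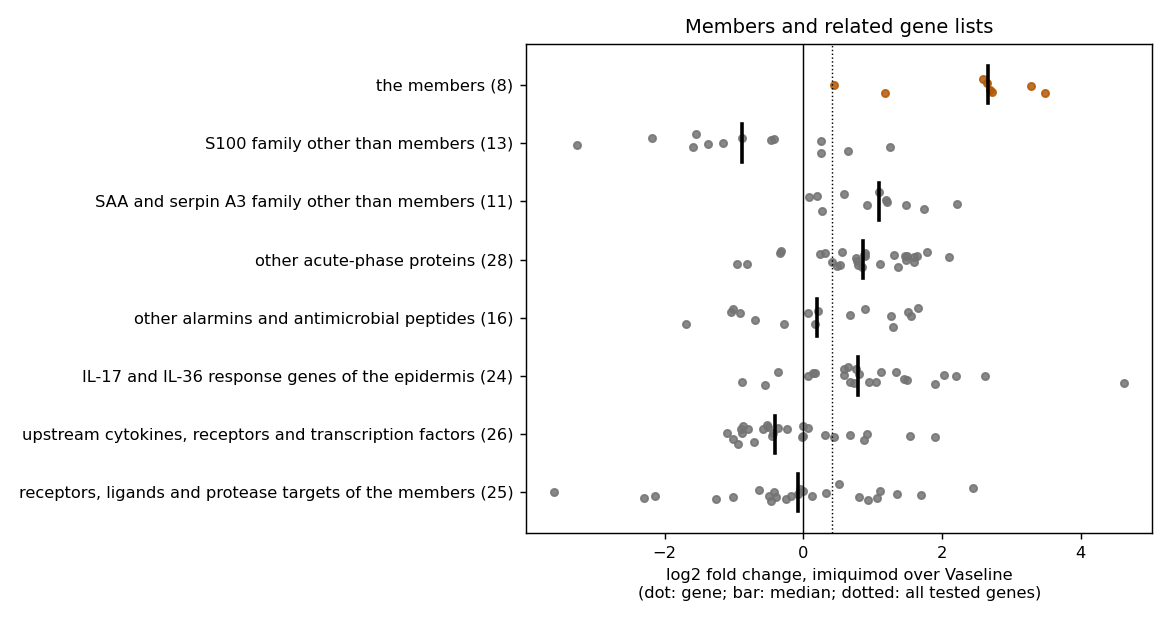
log2 fold change of imiquimod over Vaseline for the members (top row) and for the tested genes of 7 related lists; dots are genes, bars the medians and the dotted line the median of all tested genes, 0.41. The members' median is 2.67, that of the other S100 genes -0.88 and that of the upstream cytokines, receptors and transcription factors -0.40.

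The genes known to act upstream of the members mostly had negative values. Of 26 cytokines, receptors and transcription factors tested, 8 were positive and 18 negative, with a median log2 fold change of -0.40. The list's median was 0.36 on library totals, 0.24 on 21 genes above the background and -1.14 without imiquimod 1. All genes shifted between these fits too. Their median was 0.41 in the main fit, 1.30 on library totals, 0.08 above the background and 0.49 without imiquimod 1. None was called by edgeR, DESeq2, limma-voom or the older form. Before adjustment 1 higher and 0 lower had p under 0.05 by edgeR (3405 and 2010 of all 39439 genes). Il1b had 588 and 723 CPM in imiquimod 1 and 2, against 105 and 347 CPM in Vaseline 1 and 2 (1.53, SE 1.02, adjusted p = 0.440 by edgeR). Il22, a cytokine that acts on keratinocytes, had 1.90 at 2.08 times the background, and Tnf and Il1r1, the IL-1 receptor, had -1.10 and -0.94 (adjusted p = 0.359, 0.447 and 0.440 by edgeR). Fitted to genes above background alone, DESeq2 called Il1b higher, among 99 called higher of 14465 genes.

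Among receptors, ligands and protease targets of the members, 1 of 25 was called lower by edgeR and 0 higher. Of all genes, 0.137% were called lower and 0.0634% higher. In this list 2 higher and 3 lower had an unadjusted p under 0.05 by edgeR (3405 and 2010 of all 39439 genes). DESeq2 called 3 lower (669 of all 39439 genes), limma-voom 1 lower (136 of all) and the older form none. Mmp9, a gelatinase found in complex with LCN2, fell to 8.88 and 12.6 CPM in imiquimod 1 and 2, against 106 and 156 CPM in Vaseline 1 and 2 (-3.59, SE 0.76, edgeR adjusted p = 0.00349). Its log2 fold change was negative under all 17 other settings and called under 7 of them. The call was lost with RLE factors, library totals, no filter, the older form, either replicate block, edgeR on genes above background, and without imiquimod 1, imiquimod 2 or Vaseline 2. Cd36, a scavenger receptor that binds S100A8 and S100A9, had 3.77 and 4.67 CPM in imiquimod 1 and 2, against 21.4 and 16.4 CPM in Vaseline 1 and 2 (-2.14, adjusted p = 0.121 by edgeR). Fpr2 and Fpr1, formyl peptide receptors of which the first also binds serum amyloid A, had 2.45 and 1.70 at 1.91 and 3.38 times the background (adjusted p = 0.253 and 0.332 by edgeR). The median of this list was -0.075, and -0.38 with RLE factors, 0.29 with upper-quartile factors and 0.72 on library totals. Its sign thus changed between scalings, but the median of all tested genes shifted too (0.41, 0.16, 0.76 and 1.30 in that order). The list's median lay below it under each. On 16 genes above the background the list's median was 0.36, where that of all fitted genes was 0.08.

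Markers of other cells that make these proteins were measured in the same libraries. The summed level of the 8 members was 106 and 305 CPM in imiquimod 1 and 2, against 15 and 50.7 CPM in Vaseline 1 and 2. All 15 neutrophil markers were found; their sum was 30.8 and 96.3 CPM in imiquimod 1 and 2, against 35.4 and 22.2 CPM in Vaseline 1 and 2, so the sums overlapped. Of the 15, 12 had a log2 fold change above 0, and in 11 every imiquimod library was above every Vaseline library (30.5% of all genes). An unadjusted p under 0.05 by edgeR was found for 8 higher and 0 lower (3405 and 2010 of all 39439 genes). After adjustment edgeR called 1 higher, where 0.0634% of all genes were called higher. DESeq2 and the older form called none of the list higher, and limma-voom 1 (41 of all 39439 genes). Mmp8, the neutrophil collagenase, rose, with 2.75 and 21.8 CPM in imiquimod 1 and 2, against 1.87 and 0.506 CPM in Vaseline 1 and 2 (3.45, edgeR adjusted p = 0.00121). Its log2 fold change was above 0 under all 15 other settings that kept it and called under 6 of them. Without imiquimod 2 it was 1.26 and not called. Ly6g, which defines mouse neutrophils, had 1.85 and 1.96 CPM in imiquimod 1 and 2, against 1.37 and 1.23 CPM in Vaseline 1 and 2. Mpo and Csf3r were the highest markers of the list, and none was at 0 in all libraries. Vaseline 2, which had 31.0 CPM of S100a9, had the lowest neutrophil marker sum in CPM of the 4 libraries. As multiples of the background the median of these markers was 2.28 and 2.72 times in imiquimod 1 and 2, against 2.67 and 3.60 times in Vaseline 1 and 2, with Vaseline 2 highest. The part of neutrophils in the members' levels was not tested.

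All 10 activated keratinocyte markers were found and had a log2 fold change above 0 (median 0.97), and led with Krt16 and Krt17; none was at 0 in all libraries. Their sum was 1548 and 469 CPM in imiquimod 1 and 2, against 376 and 828 CPM in Vaseline 1 and 2. The sum, led by Krt16 and Krt17, was thus highest in imiquimod 1, whereas 7 of 8 members were highest in imiquimod 2. Not every gene of the list followed the sum: Sprr2d and Sprr2h were highest in imiquimod 2. The share of all tested genes highest in imiquimod 2 was not counted, so nothing is read from the 7 of 8. Keratinocyte markers, with Krt14 and Krt5 highest, summed to 13496 and 3792 CPM in imiquimod 1 and 2, against 14951 and 18077 CPM in Vaseline 1 and 2. The part of keratinocytes in the members' levels was not tested.

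Markers of the Langerhans cells themselves were lower in both imiquimod libraries in 15 of 15 genes. Their sum was 9804 and 8068 CPM in imiquimod 1 and 2, against 25951 and 68037 CPM in Vaseline 1 and 2. Cd74 and Mfge8 were highest and none was at 0 in all libraries. The share of all tested genes lower in both imiquimod libraries was not counted, so nothing is read from the 15 of 15. Of the 15, none was called by edgeR, limma-voom or the older form. Without adjustment 0 higher and 4 lower had p under 0.05 by edgeR (3405 and 2010 of all 39439 genes). DESeq2 called 11 lower, and 669 of all genes. Monocyte markers summed to 47.3 and 108 CPM in imiquimod 1 and 2, against 95.8 and 127 CPM in Vaseline 1 and 2. Adipocyte markers, measured because fat cells make Hp, Lcn2 and Saa3, summed to 8.75 and 22.7 CPM in imiquimod 1 and 2, against 11.1 and 4.49 CPM in Vaseline 1 and 2. Hepatocyte markers, for the main source of acute-phase proteins, summed to 12.3 and 12.6 CPM in imiquimod 1 and 2, against 12.7 and 7.09 CPM in Vaseline 1 and 2. The highest genes of these lists were Fn1 and F13a1, Fabp4 and Lep, and Apoa1 and Cps1, and none was at 0 in all libraries.

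Of the other lists, fibroblast markers, with Col3a1 and Col1a1 highest, summed to 34.0 and 72.0 CPM in imiquimod 1 and 2, against 45.5 and 149 CPM in Vaseline 1 and 2. Col3a1 was called lower by edgeR although its groups overlapped, where 0.137% of all genes were called lower. Endothelial markers (Vwf and Pecam1 highest) summed to 39.9 and 68.1 CPM in imiquimod 1 and 2, against 48.9 and 38.7 CPM in Vaseline 1 and 2. T cell markers (Il2rb and Cd3g highest) were at 198 and 162 CPM in imiquimod 1 and 2, against 306 and 299 CPM in Vaseline 1 and 2. Mast cell and erythroid lists were low. Mast cell markers (Kit and Cpa3 highest, Fcer1a at 0 throughout) were at 27.2 and 33.7 CPM in imiquimod 1 and 2, against 15.9 and 21.4 CPM in Vaseline 1 and 2. Erythroid markers (Alas2 and Hba-a2 highest) were at 4.92 and 7.30 CPM in imiquimod 1 and 2, against 6.26 and 2.58 CPM in Vaseline 1 and 2.

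**Figure D5:**
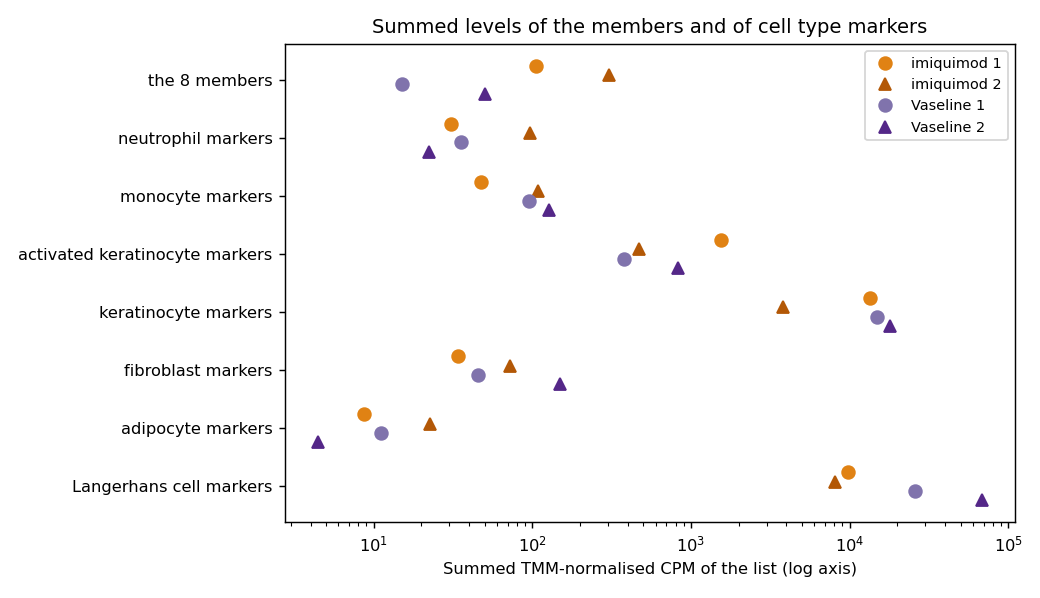
Summed TMM-normalised CPM (log axis) of the 8 members and of marker lists of 7 cell types in each library, with imiquimod above Vaseline in each row. The members' sum is highest in imiquimod 2 (305 CPM), as is that of the neutrophil markers (96.3 CPM). The sum of the activated keratinocyte markers, led by Krt16 and Krt17, is highest in imiquimod 1 (1548 CPM).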

How the data were processed

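RNA of isolated ear Langerhans cells was measured in 4 libraries prepared with a stranded SMARTer Pico kit from total RNA, per the labels' protocols. Reads went through Trimmomatic, HISAT2, SAMtools and StringTie with GRCm38, per the submitters' processing notes; versions, annotation release, strand setting and the treatment of multi-mapped reads are not given in the sources used here. The deposited values are raw counts per gene.

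Counts were fitted with edgeR 4.0.16 (R 4.3.3): TMM factors, filterByExpr (minimum count 10, minimum total 15; 39439 of 55487 genes kept), the bias-adjusted quasi-likelihood test (two-sided), with p adjusted by Benjamini-Hochberg over all tested genes at a threshold of 0.05. SE was taken as log2 fold change divided by the root of the F statistic. Alternatives were other factors, filters, DESeq2 1.42.0, limma-voom (limma 3.58.1), a block for the replicate number, each library left out, and genes at 5 times the background or more. Exon unions and overlaps came from GENCODE vM21 (bedtools 2.31.1), and Python 3.11.15 handled tables.

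The members and the 7 gene lists and 12 marker lists were chosen with earlier results of these data known. From each list, genes called were named, and the genes of smallest p up to 4; likeness profiles used log2(CPM + 0.5). All 239 list symbols were found, 3 under a synonym. The imiquimod libraries are the shallowest, which limits precision at low counts.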

Additional observations from a re-analysis of the deposited data

How the results depend on the processing

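Of 129 values of single members under other settings, 128 kept their sign. The exception was Serpina3g without Vaseline 2, at -0.077 (1.06 without Vaseline 1). Since the members were chosen on this comparison, the kept signs are no independent check. The median log2 fold change of the members was 2.67, 3.81 on library totals alone, and 1.47 to 3.15 with 1 library left out; no value could be had on genes above background, since 4 members lay under 5 times the background. Lcn2, S100a8, S100a9 and Serpina3n had 4.47, 3.83, 3.80 and 4.16 there, where the median of all fitted genes was 0.08. The genes named from the lists, and Mmp8, kept their sign under every setting that fitted them. They were named for a call or a small p in the main fit of the same libraries, so this was largely fixed in advance.

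Calls over all genes, 25 higher and 54 lower, depended on most settings, and the cause was not tested. They were 6 and 669 by DESeq2, 41 and 136 by limma-voom, 3 and 5 in the older quasi-likelihood form (an alternative chosen after seeing the data), 17 and 14 (RLE factors), 41 and 56 (upper-quartile factors), 8 and 5 on library totals, 0 and 0 with no filter, and 27 and 124 with at least 10 counts in every library. On genes above background they were 0 and 0 by edgeR (780 and 693 before adjustment) and 99 and 155 by DESeq2, added after seeing the data. With 1 library left out, genes called higher ran from 8 (without imiquimod 2) to 2959 (without Vaseline 1) and genes called lower from 0 to 317. The replicate block gave 1 and 0. Same-numbered libraries deviated in opposite directions (correlation -0.41 over genes), and the crossed pairing, added after seeing the data, gave 0 and 0; the numbers do not show a pairing.

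On library totals the list medians were -0.21 (other S100 genes), 2.00 (SAA and Serpina3), 1.77 (acute-phase), 1.04 (other alarmins), 1.68 (IL-17 and IL-36), 0.36 (upstream) and 0.72 (receptors and targets). For other alarmins they were -0.12 with RLE factors and -0.12 by DESeq2. For receptors and targets they were -0.38 with RLE factors, -0.42 by DESeq2, 0.29 with upper-quartile factors and 0.12 with at least 10 counts in every library. The median of all fitted genes was 1.30 on library totals, 0.16 with RLE factors and 0.15 by DESeq2. It was 0.76 with upper-quartile factors and 0.28 with at least 10 counts in every library. With 1 library left out the list medians ran from -1.87 to -0.058 (S100), 0.46 to 1.30 (SAA and Serpina3), 0.49 to 1.09 (acute-phase), -1.13 to 0.66 (other alarmins), 0.55 to 1.6 (IL-17 and IL-36), -1.14 to -0.071 (upstream) and -0.26 to 0.088 (receptors and targets).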
